A study of Mus musculus with 14 samples.

Results

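The imprinted Dlk1-Dio3 cluster holds one of the largest groups of microRNA (miRNA) genes in the mouse genome. Its miRNAs were measured here in small extracellular vesicles (membrane-bound particles shed by cells) from neutrophils kept with or without 27-hydroxycholesterol (27HC). Members were taken by name from the deposited table of mature miRNAs: every listed name that carried 1 of 43 cluster numbers, alone or with the suffix 5p or 3p. This gave 75 names of 1695, with all 43 numbers present, 38 names of the 5p arm and 37 of the 3p arm. Per the labels, the parent cells were primary bone marrow neutrophils, selected as Ly6G+ cells of female WT BALB/c mice. They were cultured for 48 h with the solvent DMSO or with 10 µM 27HC, a cholesterol metabolite made by the enzyme CYP27A1 that binds liver X receptors and the estrogen receptor. Each group had 7 libraries, numbered 1 to 7. The labels name no transgene, and they do not say whether libraries came from separate animals or cultures, so p-values measure only the spread between these libraries.

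In an imprinted locus, only the copy inherited from one parent is active. The paternal copy of this locus expresses the protein-coding genes Dlk1, Rtl1 and Dio3, whereas the maternal copy expresses long noncoding RNAs, among them Meg3, Rian and Mirg, from which the miRNAs are cut. A miRNA hairpin gives a 5p and a 3p arm, and one of them is usually kept while the other is lost. The mature strand pairs with messenger RNAs mainly through its seed, the bases 2 to 8 from the 5′ end, and represses them. The cluster is known for high expression in embryo, placenta and brain and for low expression in most adult tissues, and within blood it is known for its activity in hematopoietic stem cells.

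The sequences below are the mature miRNAs on which the values turn, 5′ to 3′, with the seed in capitals. The first 3 are members found in every library. The next 2 are the arms of Mir382, and the 3 after them are members with 1 library far above the others. The last 3 had a large fold change in few counts or shared a seed outside the cluster.
miR-369-3p: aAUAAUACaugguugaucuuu
miR-127-3p: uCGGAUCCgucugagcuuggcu
miR-379-5p: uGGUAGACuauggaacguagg
miR-382-5p: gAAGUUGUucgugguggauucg
miR-382-3p: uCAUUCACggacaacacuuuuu
miR-370-3p: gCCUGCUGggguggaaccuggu
miR-543-3p: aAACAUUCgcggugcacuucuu
miR-494-3p: uGAAACAUacacgggaaaccuc
miR-409-3p: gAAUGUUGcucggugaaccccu
miR-485-3p: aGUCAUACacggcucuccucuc
miR-329-3p: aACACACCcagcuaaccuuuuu

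Sequences came from RefSeq (GRCm38.p6, plus strand of chromosome 12), which matched 71 of the 75 members. miR-376c-3p, miR-485-5p, miR-487b-3p and miR-539-3p had no matched entry. The 71 matched members had 71 distinct seeds, so 0 of them shared a seed with another matched member. The 4 members without an entry could not be compared. For 10 members the seed also occurred in a listed name outside the cluster, such as the ACACACC seed of miR-329-3p, which miR-362-3p carries too (86 counts). In 9 members another listed name differed by at most 3 bases over at least 18 compared bases. miR-381-3p (26 counts) and miR-300-3p (4 counts) differed by 3, and the arms miR-341-3p (14 counts) and miR-341-5p (6 counts) by 2. How reads that match such pairs were assigned is not given in the sources used here.

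On GRCm38.p6 the member hairpins run over 180 kb of chromosome 12, between Dlk1 (chr12:109452485-109463336) and Dio3 (chr12:110279230-110281097). The first is Mir770, at chr12:109563692-109563785, and the last is Mir410, at chr12:109743715-109743795. Mir379, at chr12:109709060-109709125, opens the dense stretch that extends through Mir410, the region of the Mirg transcript. The deposited counts carry no coordinates, so these positions belong to the annotation.

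Library totals ran from 112914 to 871189 counts. Levels are given in CPM, counts scaled to a common TMM library size. A name with 0 counts could have a true level of up to 3 counts, which was 4.09 to 24.6 CPM depending on the library. This limit and the intervals below cover counting error only. Replicates 5 to 7 were shallower in general (112914 to 252014 counts) than replicates 1 to 4 (229324 to 871189 counts), and what sets these replicate numbers apart is not stated in the labels.

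Cluster miRNAs were present in every library and scarce in all of them. Together they held 883 of 3925790 counts, or 0.0225%: 497 of 2373021 counts with DMSO (0.0209%) and 386 of 1552769 with 27HC (0.0249%). The median member had 5 counts over the 14 libraries, against 8 for all other names. In 50 of the 75 members the total was under 10 counts, and 15 members had 1 count. The highest, miR-369-3p, had 93 counts and ranked 282 among the 1695 names. Only miR-369-3p, miR-127-3p, miR-376c-3p and miR-382-5p reached 50 counts.

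Detection across libraries was correspondingly sparse. Of the 75 members, 4 were found in all 14 libraries: miR-369-3p, miR-127-3p, miR-376c-3p and miR-379-5p. In all, 9 members were found in at least 10 libraries and 19 in 1 library. Counts were present in both groups for 49 members, in DMSO only for 15 and in 27HC only for 11. Of all 1695 names, 1256 had counts in both groups. No member with counts in 1 group only had more than 8. The 5 most abundant members held 342 of the 883 counts (38.7%), and the 20 most abundant held 650 (73.6%). Each of the other 55 had at most 14 counts.

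The summed level of the 75 members was compared between groups as CPM on TMM-scaled library sizes, by library. With DMSO the sums were 201, 195, 179, 200, 289, 307 and 312 CPM in replicates 1 to 7. With 27HC they were 199, 264, 230, 243, 249, 328.96 and 394 CPM. The groups overlapped over most of their range, and in both of them the higher sums lay mostly in replicates 5 to 7. The group means were 240 ± 59.0 CPM with DMSO and 272 ± 66.6 CPM with 27HC (SD, n = 7). The difference of 32.0 CPM, a ratio of 1.13, was smaller than either SD, and without 27HC replicate 7 it was 11.8 CPM. In these bulk vesicle samples, a change in the number of vesicles or cells of one type and a change in the RNA that each holds cannot be told apart.

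Taken over all 7 libraries of a group, counting error was smaller than this spread. The sum of DMSO replicate 3 rested on 131 counts, which gives an exact Poisson 95% interval of 149 to 212 CPM. That of 27HC replicate 7 rested on 48 counts, with an interval of 290 to 522 CPM. Counting alone corresponds to an SD of 32.4 CPM among the DMSO libraries, against 59.0 CPM between them. Among the 27HC libraries it corresponds to 40.3 CPM, against 66.6 CPM. Within replicates 1 to 4 and within replicates 5 to 7, the DMSO SDs were 10.5 and 12.3 CPM, both below the 32.4 CPM. The 27HC SDs there were 27.5 and 72.7 CPM, the first below and the second above the 40.3 CPM.

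The difference between treatments was then taken within the 2 sets of replicate numbers. In replicates 1 to 4, the means were 194 ± 10.5 CPM with DMSO and 234 ± 27.5 CPM with 27HC (SD, n = 4), a difference of 40.2 CPM. There, 27HC replicates 2, 3 and 4 were above the highest DMSO library and 27HC replicate 1 was within the DMSO range. In replicates 5 to 7, the means were 303 ± 12.3 and 324 ± 72.7 CPM (SD, n = 3), a difference of 21.1 CPM, with 27HC libraries both below and above all 3 DMSO libraries. On library totals without TMM scaling, the difference was 44.5 CPM in replicates 1 to 4 and −7.66 CPM in replicates 5 to 7, so its sign in the latter depends on the scaling.

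The step between the replicate sets was larger than that between treatments. Replicates 5 to 7 were 1.56 times as high as replicates 1 to 4 with DMSO and 1.38 times with 27HC. Other rare miRNAs differed in the same direction. The 1381 names outside the cluster that did not pass the low-count filter of the test below (22828 counts in all) had means of 4554 and 10993 CPM with DMSO, a ratio of 2.41, and of 4929 and 9528 CPM with 27HC, a ratio of 1.93. The share of the cluster among all rare counts was accordingly lower in replicates 5 to 7, at 2.70% against 4.15% with DMSO and 3.28% against 4.54% with 27HC. Of all names, 69.3% had a higher mean CPM in replicates 5 to 7, as did 44 of the 75 members. The part of depth in this step was not tested.

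**Figure D1:**
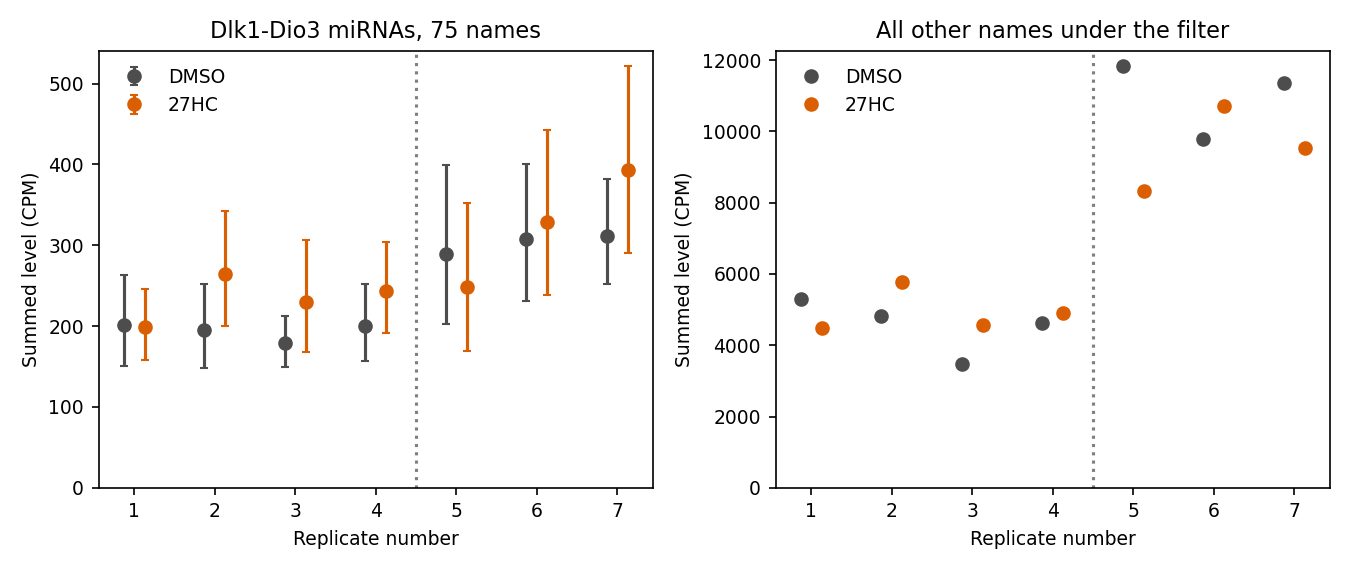
Summed level in CPM by replicate number for the 75 cluster miRNAs (left; bars are exact Poisson 95% intervals) and for the 1381 other names under the low-count filter (right); the dotted line divides replicates 1 to 4 from 5 to 7. The cluster sums of the 2 groups overlap, at 179 to 312 CPM with DMSO and 199 to 394 CPM with 27HC, and both panels are higher on the right of the line.

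Along the locus, the 12 hairpins upstream of Mir379 gave 20 names and 240 counts. One of them, Mir770, lies in the span of Meg3 and had 5 counts, all in miR-770-3p and all with 27HC. Within the annotated span of Rtl1 (chr12:109564900-109604418), 9 hairpins gave 15 names with 105 DMSO and 62 27HC counts. Rtl1 encodes a retrotransposon-derived protein of the placenta, and miRNAs cut from its antisense transcript, miR-127 among them, are known to direct cleavage of its messenger RNA. Within Rian, Mir341 and Mir370 gave 4 names with 39 DMSO and 29 27HC counts.

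miR-127-3p was the most abundant of the Rtl1 span, from Mir127 at chr12:109592846-109592915. Its level ran from 3.36 to 43.6 CPM with DMSO (median 20.4, 1 to 15 counts) and from 4.64 to 38.3 CPM with 27HC (median 16.03, 1 to 8 counts). The ranges nearly coincided. The means were 22.1 ± 12.5 and 19.4 ± 10.98 CPM (SD, n = 7), and the fitted log2 fold change of 27HC over DMSO was −0.33 (SE 0.60).

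The other members of the Rtl1 span among the 20 most abundant were sparse. miR-136-5p had mean levels of 5.06 ± 6.34 CPM with DMSO and 6.01 ± 8.09 CPM with 27HC (SD, n = 7), and was found in 4 DMSO and 3 27HC libraries. miR-665-5p had 11 counts, at 2.97 ± 5.90 and 7.24 ± 11.4 CPM. Both groups held libraries at 0 for each of them.

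In the span of Rian, miR-370-3p ran from 2.73 to 28.4 CPM with DMSO (median 8.02) and from 0 to 56.1 CPM with 27HC (median 16.4). Among the 27HC libraries, 6 were inside or below the DMSO range, and 27HC replicate 5, with 7 counts, stood above it. The means were 14.2 ± 10.7 and 17.7 ± 18.6 CPM (SD, n = 7). The fitted log2 fold change was 0.21 (SE 0.71), and without 27HC replicate 5 it was −0.30. miR-341-3p had 14 counts, with means of 4.40 ± 5.18 and 3.81 ± 5.46 CPM.

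From Mir379 to Mir410, 31 hairpins gave 55 names and 643 counts. Their sums were 170 ± 37.6 CPM with DMSO and 198 ± 47.3 CPM with 27HC (SD, n = 7), a difference of 28.2 CPM. For the hairpins upstream of Mir379 the sums were 70.7 ± 27.7 and 74.5 ± 33.8 CPM, a difference of 3.87 CPM. Over all 7 libraries, neither difference exceeded the SD of its groups. Within replicates 1 to 4, the sums from Mir379 on did not overlap, at 132 to 150 CPM with DMSO and 161 to 209 CPM with 27HC. The difference was 43.9 CPM with SDs of 9.66 and 19.96 (n = 4). These sums rested on 35 to 97 counts per DMSO library and 36 to 68 per 27HC library. No counting interval was computed for them, and how often other sums of rare names separate in this subset was not tested. Within replicates 5 to 7 the sums from Mir379 on overlapped, at 199 to 225 and 152 to 295 CPM, a difference of 7.22 CPM. Upstream of Mir379 the differences were −3.67 CPM in replicates 1 to 4 and 13.9 CPM in replicates 5 to 7. These sums got no test, and the difference between the 2 stretches was not tested.

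**Figure D2:**
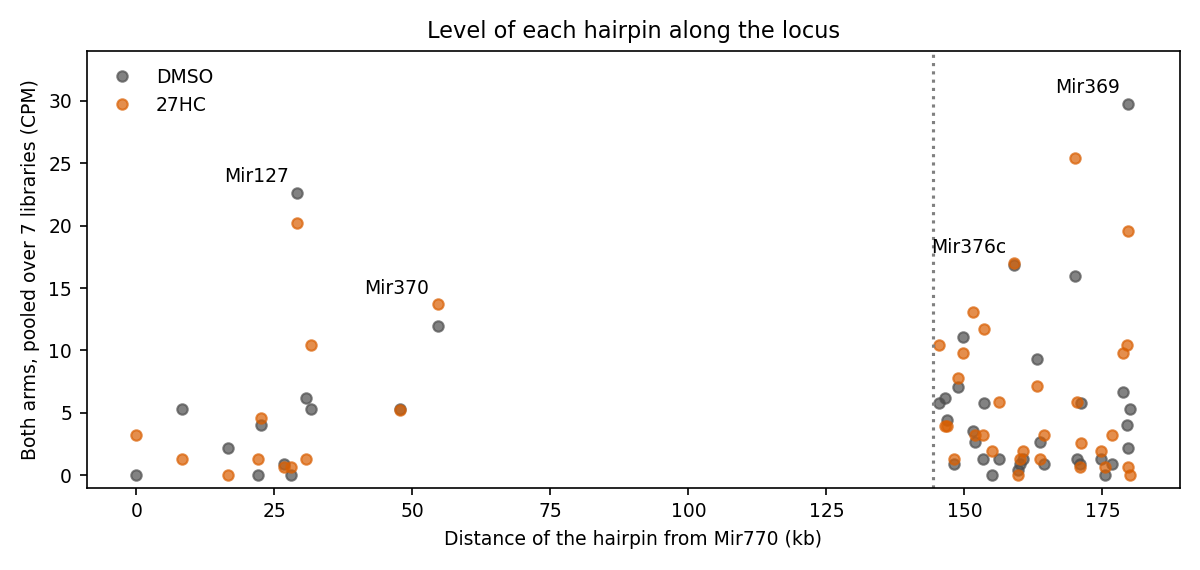
Pooled level in CPM (both arms, 7 libraries per group) of each of the 43 member hairpins against its distance from Mir770 in kb on GRCm38.p6; the dotted line marks the start of the stretch that opens with Mir379. Mir369, near the far end, is highest with DMSO, and Mir382 is highest with 27HC.

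miR-369-3p, the most abundant member, comes from Mir369 at chr12:109743418-109743496, next to the end of the cluster. It ran from 16.04 to 41.8 CPM with DMSO (median 19.0, 2 to 28 counts) and from 6.32 to 49.2 CPM with 27HC (median 15.3, 1 to 7 counts). Of the 27HC libraries, 4 lay below every DMSO library, and 1 lay above all of them. The means were 24.1 ± 10.95 and 22.2 ± 16.6 CPM (SD, n = 7), and the fitted log2 fold change was −0.38 (SE 0.57). Within replicates 5 to 7 it was 0.37, and without DMSO replicate 3 it was −0.10.

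miR-376c-3p, a member of the miR-376 family known for A-to-I editing in brain, comes from chr12:109722718-109722803. It ran from 8.02 to 43.7 CPM with DMSO (median 11.4) and from 8.02 to 49.2 CPM with 27HC (median 14.97). One library in each group, DMSO replicate 2 and 27HC replicate 7, was above the rest. The fitted log2 fold change was −0.04 (SE 0.63). miR-382-5p ran from 0 to 28.4 CPM with DMSO (median 15.2) and from 0 to 30.6 CPM with 27HC (median 12.6), with a fitted log2 fold change of 0.03 (SE 0.68). The 5 most abundant members, miR-370-3p included, had SDs wider than the steps between their means, so their order is not resolved.

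miR-379-5p had a narrow spread for a member of its level. It was found in every library at 1 to 4 counts, with 3.35 to 8.35 CPM under DMSO (median 5.69) and 6.32 to 16.03 CPM under 27HC (median 9.46). For 27HC, 4 libraries lay above the highest DMSO library and 3 lay within the DMSO range. The means were 5.97 ± 2.10 and 10.9 ± 3.93 CPM (SD, n = 7). The fitted value was a log2 fold change of 0.73 (SE 0.86; adjusted p 0.719 by edgeR without a filter on low counts). In 22 alternative fits without a filter it was between 0.63 and 0.90, and the 21 that gave an adjusted p had values from 0.678 to 0.996.

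A pair of members of this stretch, miR-494-3p and miR-543-3p, had a higher 27HC mean that came mainly from 1 library. miR-494-3p ran from 0 to 8.35 CPM with DMSO (median 3.35) and from 0 to 41.1 CPM with 27HC (median 9.28), where 27HC replicate 4 held 13 of its 28 counts. The means were 3.35 ± 2.98 and 11.7 ± 14.8 CPM (SD, n = 7). The fitted log2 value of 27HC over DMSO was 1.62 (SE 0.88; adjusted p 0.434 by edgeR), and it was 0.69 without 27HC replicate 4. The 27HC replicates 2, 3, 4 and 7, at 9.28, 14.97, 41.1 and 16.4 CPM, lay above the highest DMSO library. The 27HC replicates 1, 5 and 6 were at 0.

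miR-543-3p ran from 0 to 17.1 CPM with DMSO (median 4.09) and from 0 to 82.0 CPM with 27HC (median 0), where 27HC replicate 7 held 10 of its 30 counts. No count was found in 4 of the 27HC libraries. Its fitted log2 fold change was 1.01 (SE 0.84), and −0.39 without that library.

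miR-409-3p had 6 DMSO libraries at 0 to 3.79 CPM and 1 at 8.35 CPM, against 0 to 24.05 CPM with 27HC (median 6.32). Its fitted log2 fold change was 1.15 (SE 1.02).

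Of the other members of the 20 from this stretch, miR-382-3p and miR-485-3p are described with the rarest members below, and 6 had group means closer than their SDs. miR-323-3p was at 7.52 ± 5.03 CPM with DMSO and 7.06 ± 3.59 CPM with 27HC. miR-381-3p was at 7.37 ± 8.19 and 5.93 ± 5.48 CPM, and miR-541-3p at 5.72 ± 5.92 and 6.71 ± 7.67 CPM. miR-411-5p was at 4.34 ± 5.34 and 5.55 ± 5.75 CPM (all SD, n = 7), and 9 of its 19 counts lay in DMSO replicate 3. miR-329 and miR-134 of this stretch are known as activity-induced miRNAs of neurons. miR-329-5p was at 7.67 ± 8.20 and 6.89 ± 9.46 CPM, and miR-329-3p at 7.31 ± 4.97 and 5.72 ± 6.84 CPM. miR-134-5p had 9 counts in all, of which 6 lay in 27HC replicate 1.

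**Figure D3:**
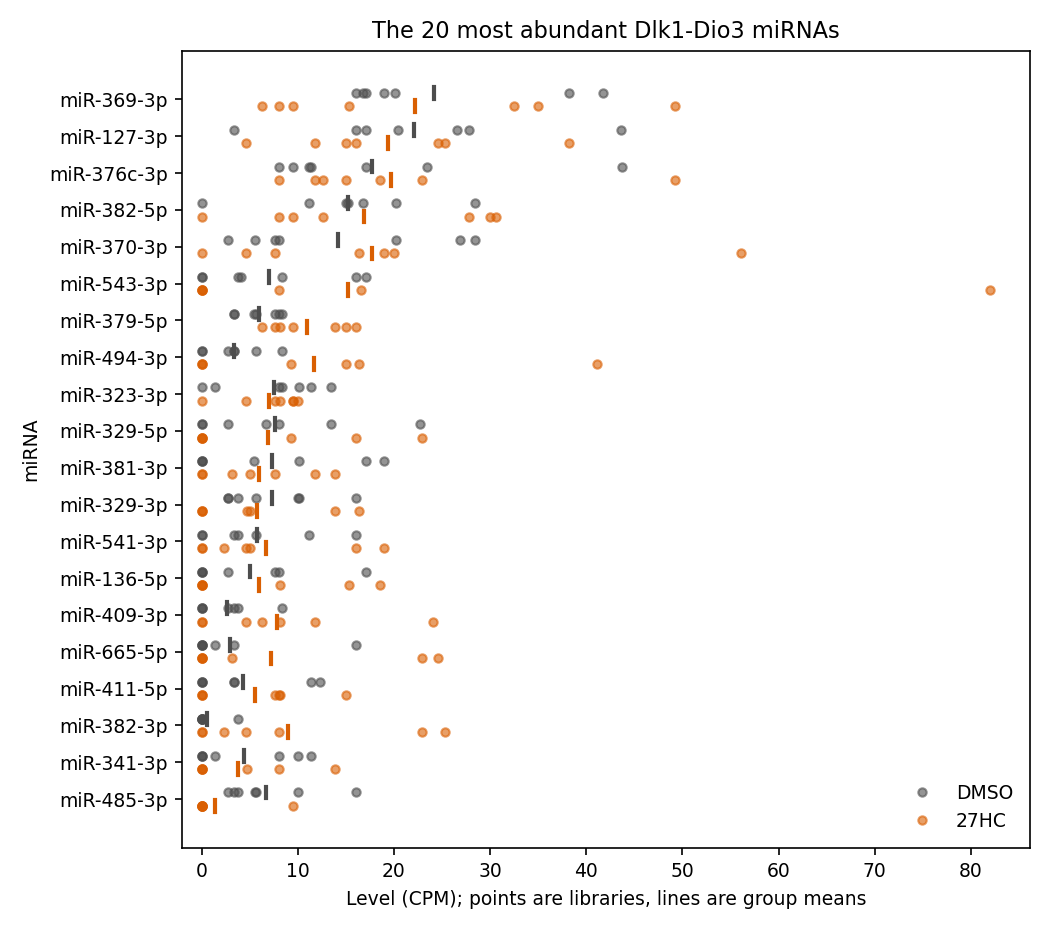
Level in CPM of the 20 most abundant cluster miRNAs in each library (points) with group means (vertical lines). The groups overlap for all 20, and single libraries stand apart for miR-543-3p (82.0 CPM), miR-370-3p (56.1 CPM) and miR-494-3p (41.1 CPM) with 27HC.

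The arms of a hairpin are made in equal number, and their counts in the vesicle libraries were compared for hairpins with enough counts. How long an arm was kept in the parent cells was not tested. Over all members the 3p names held 593 counts and the 5p names 290, a 3p share of 67.2%. Both arms were listed for 32 hairpins, and 8 of these held at least 30 counts. The 3p arm was ahead in 7 of the 8 and the 5p arm in 1. The exact Clopper-Pearson 95% interval of the leading arm's share was above 50% in 6.

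Mir369 gave 4 counts of its 5p arm and 93 of its 3p arm, a 3p share of 95.9% (95% interval 89.8 to 98.9%). Mir127 gave 4 and 78, a 3p share of 95.1% (88.0 to 98.7%), and in both hairpins the 3p arm was higher in all 14 libraries. Mir370 gave 1 and 47, at 97.9% (88.9 to 99.9%), and Mir543 gave 1 and 30, at 96.8% (83.3 to 99.9%). Mir381 was less one-sided at 6 and 26 counts, 81.3% (63.6 to 92.8%). In all of these hairpins the counts were mainly of the 3p arm.

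Among these 8 hairpins, Mir382 was the one with mainly the 5p arm, at 60 counts against 15, a 5p share of 80.0% (69.2 to 88.4%). Its arms were divided differently in the 2 groups, with 35 counts of the 5p arm and 1 of the 3p arm under DMSO and 25 and 14 under 27HC. Of those 14, 8 lay in 27HC replicate 4. Among hairpins with fewer counts, Mir411 also had mainly the 5p arm, at 19 counts against 1, and Mir379 had only its 5p arm listed, at 29 counts. No arm was clearly ahead in Mir329, with 19 and 21 counts and a 3p share of 52.5% (36.1 to 68.5%), or in Mir541, with 10 and 20 counts and 66.7% (47.2 to 82.7%).

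Summed by arm, the treatments overlapped. The 5p names were at 83.6 ± 43.1 CPM with DMSO and 93.1 ± 45.9 CPM with 27HC, and the 3p names at 157 ± 25.6 and 179 ± 57.2 CPM (SD, n = 7). The 3p share per library was 66.8% ± 10.1 and 66.1% ± 12.9.

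**Figure D4:**
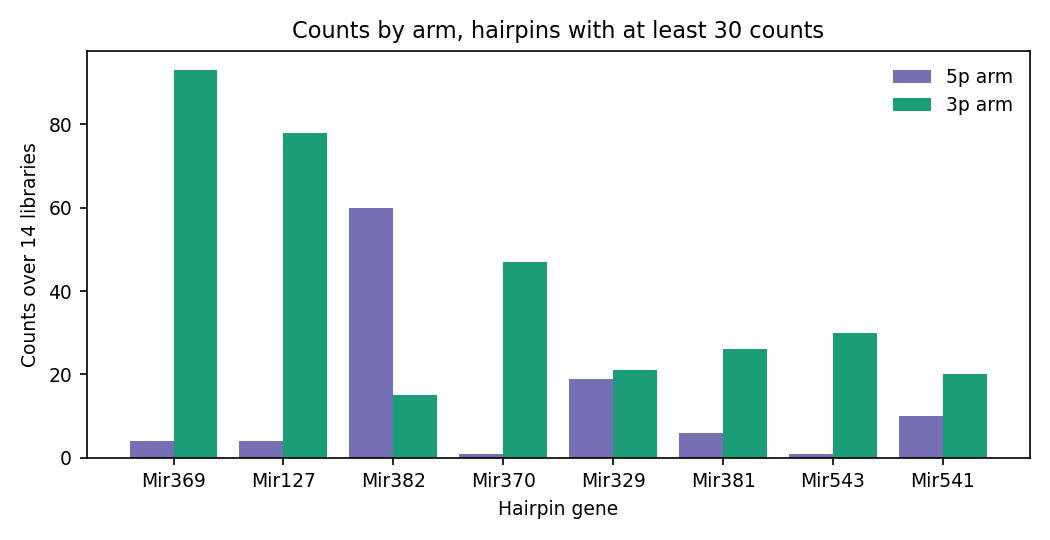
Counts of the 5p and 3p arm over the 14 libraries for the 8 member hairpins with both arms listed and at least 30 counts. The 3p bar is the higher one in 7 hairpins and the 5p bar in Mir382, where it stands at 60 counts against 15.

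In the edgeR quasi-likelihood test of 27HC against DMSO, names with low counts were first removed by filterByExpr, which left 239 names. None of the 75 members passed, so 0 could be called, while 30 of the 239 names tested (12.6%) had an adjusted p under 0.05. With no filter, all 75 members were tested among 1695 names. By that edgeR fit, 27 names (1.59%) and 0 members were called. At an unadjusted p under 0.05 stood 10 members (13.3%) and 182 of all names (10.7%), so the share among the members was near that of the table. The lowest adjusted p of a member was 0.251, for miR-382-3p.

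Other tools also called 0 members. DESeq2 had 1 member at an unadjusted p under 0.05, against 74 of all names (4.37%), and gave no adjusted p for 69 of the 75. Without a filter, limma-voom had 7 such members, against 141 of all names (8.32%). edgeR with a term for the replicate sets had 6, against 169 of all names (9.97%). With a minimum mean of 5 counts, miR-369-3p and miR-127-3p were the members tested, and neither had an unadjusted p under 0.05. For 0 members did the groups fail to overlap in CPM, against 13 of all 1695 names (0.767%).

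The direction of the members was evenly divided. Of the 49 with counts in both groups, 27 had a higher mean CPM with 27HC and 22 a lower one. Their median fitted log2 fold change was 0.03, and it was −0.08 over the 1256 names of the table with counts in both groups. Among the 20 most abundant, 12 means were higher with 27HC and 8 lower, with fitted log2 fold changes from −1.55 to 3.21 and SEs from 0.57 to 1.19.

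The members with the lowest unadjusted p were all rare, with totals of 3 to 15 counts, and 8 of the 10 had counts in 1 group only. Of the 10, 4 were higher with 27HC. miR-382-3p had 1 count with DMSO (DMSO replicate 1) and 14 with 27HC, spread over 5 libraries at 1, 1, 8, 1 and 3 counts. The ratio of pooled CPM was 20.6, with a 95% counting interval of 3.13 to 870, and the edgeR adjusted p was 0.251 (log2 fold change 3.21, SE 1.19). Without 27HC replicate 4, which held the 8, the fitted log2 fold change was 2.54. miR-770-3p had 5 counts, miR-127-5p 4 and miR-134-3p 3, all with 27HC, and the counts of miR-127-5p and of miR-134-3p each came from 1 library.

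The other 6 were lower with 27HC. miR-434-3p, from the Rtl1 span, had 13 counts in 5 DMSO libraries and 1 count with 27HC, with a pooled ratio of DMSO over 27HC of 8.84 (95% counting interval 1.33 to 375.9). Both arms of Mir410 had counts with DMSO only, 8 for miR-410-5p and 4 for miR-410-3p. The same held for miR-381-5p (6 counts), miR-665-3p (5 counts, of which 4 lay in DMSO replicate 7) and miR-493-3p (4 counts in 4 libraries).

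miR-485-3p also had few counts in 1 group. It was found in all 7 DMSO libraries at 1 to 3 counts (2.73 to 16.04 CPM, median 5.57) and in 1 27HC library, replicate 4, at 3 counts. The ratio of pooled CPM of DMSO over 27HC was 2.72, with a 95% counting interval of 0.734 to 15.03. The fitted log2 fold change was −1.55 (SE 1.16), and the edgeR adjusted p without a filter was 0.579. It was −0.60 within replicates 1 to 4. Without 27HC replicate 4, or within replicates 5 to 7, the 27HC group had no count, and the fitted values of −3.77 and −3.84 then depend on the prior count of the fit.

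The number of members found per library depends on depth. At least 1 count was seen for 26.4 ± 3.78 members with DMSO and 22.0 ± 4.83 with 27HC (SD, n = 7), a difference of −4.43. When every library was thinned to 112914 counts, 16.6 ± 4.96 and 16.6 ± 2.62 members were expected, a difference of 0.00918. The thinned number differed in opposite directions in the 2 replicate sets, with 27HC minus DMSO at 2.69 for numbers 1 to 4 and −3.56 for numbers 5 to 7.

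A further 18 listed names from miRNA numbers assigned to this locus but outside the naming rule held 174 counts, 106 with DMSO and 68 with 27HC. The annotation placed 17 of them between Dlk1 and Dio3. The most abundant was miR-1188-3p, with 27 and 29 counts. None passed the filter, and 0 were called by edgeR without one, with 1 at an unadjusted p under 0.05. That 1 was miR-3072-5p, with 12 counts in 4 libraries under DMSO and 0 under 27HC (edgeR adjusted p 0.173).

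The labelled cell type was checked against marker miRNAs. The arms of miR-223 and miR-142a, the list used here for neutrophil and myeloid cells, were all listed (4 of 4) and abundant. They summed to 83291 to 216664 CPM with DMSO and 113054 to 149157 CPM with 27HC, and miR-223-3p was the most abundant. By edgeR, miR-142a-3p (log2 fold change −1.53, adjusted p 3.55e-05) and miR-142a-5p (−0.74, adjusted p 0.0223) were lower with 27HC. Neither arm of miR-223 was called (adjusted p 0.406 for 3p and 0.388 for 5p). Markers of other cell types and tissues were at far lower levels, with none at 0 over the 14 libraries. The 6 neural markers summed to 1089 to 1648 CPM with DMSO and 1303 to 1605 CPM with 27HC, mostly miR-128-3p. The 12 stromal and muscle markers summed to 2558 to 3889 and 2350 to 5163 CPM. The liver marker miR-122-5p alone, with 11206 counts, was at 2475.7 to 4586.9 and 1894.9 to 3671.6 CPM. The 5 erythroid markers summed to 962.2 to 2052.7 and 1402.9 to 2126.7 CPM. Most of this sum was miR-486a-5p and miR-486b-5p, which had identical counts (1597 with DMSO and 1398 with 27HC, each). The same reads may thus enter the erythroid sum under both names. The 2 endothelial markers summed to 540.4 to 1042.4 and 519.5 to 1130 CPM. The lymphoid marker miR-150-5p was at 140.8 to 375.6 CPM with DMSO and 73.8 to 171.6 CPM with 27HC. The part of other cell types in the cluster counts was not tested.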

How the data were processed

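Small RNA of vesicles was sequenced in 14 libraries, 7 per group; per the labels' protocols, the miRNeasy Micro kit served for extraction and the QIAseq miRNA kit for library preparation. The values are raw counts per mature miRNA deposited by the authors. The submitters' processing notes name R 4.1.2, edgeR, limma and the build GRCm39 (mm39) without a role; the aligner, the counter and any use of molecular identifiers are not given in the sources used here. All columns and rows were matched to names and labels (0 unmatched). All 42 library pairs within a group differed beyond sampling noise (lowest chi-square per degree of freedom 4.95).

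The counts were fitted over the whole table with edgeR 4.0.16 and limma 3.58.1 in R 4.3.3 (quasi-likelihood test, treatment as the only term, TMM scaling, filterByExpr, minimum count 10, minimum total 15). A name was called at a p under 0.05 after Benjamini-Hochberg adjustment over all names tested. As no member passed the filter, fitted fold changes of members come from the fit without a filter. The fit was also run on simulated data, which is not used here as support for the lack of called members. CPM uses TMM library sizes from the 239 names that passed the filter, whereas the fit without a filter took its TMM factors over all 1695 names. Mean CPM and fitted fold changes of members are therefore not on 1 scale. Their signs can differ, as for miR-376c-3p (means of 17.8 CPM with DMSO and 19.7 CPM with 27HC, log2 fold change −0.04). Sums over members got no test, because the members and the lists of names were chosen with earlier results of these data known. Members described one by one are the 20 with the highest mean CPM and those that passed the filter or were called without it, of which there were 0. Those with an unadjusted p under 0.05, miR-134-5p and the names outside the rule were named after their values were seen. Arms were compared where both were listed with at least 30 counts. DESeq2 1.42.0 was an alternative. Library names each carry 2 consecutive numbers, matching in both groups, and what these 2 numbers stand for is not stated in the labels. Correlations between same-numbered libraries were all positive, from 0.069 (replicate 2) to 0.600 (replicate 6). They do not settle whether the replicate numbers mark pairs of a DMSO and a 27HC library. The main fit did not take the numbers as pairs, and a replicate block was an alternative. Sequences and positions came from RefSeq GRCm38.p6 and were used for names and neighbours only.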

Additional observations from a re-analysis of the deposited data

Results flagged for a closer look

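In 52 groups of 7 libraries (20 members and 6 summed measures, in each treatment), 8 had a library whose gap to its nearest neighbour exceeded the 95% critical value of Dixon's test. For continuous values chance gives about 1 in 20 groups, or 2.6 of 52, but that rate does not hold for counts this low: a group with a single library above 0, as in miR-382-3p with DMSO and miR-485-3p with 27HC, exceeds the limit by construction. Among 27HC libraries, replicate 7 stood apart at 82.0 CPM for miR-543-3p (10 counts; next 16.6 CPM), at 49.2 CPM for miR-376c-3p (6 counts; next 23.0 CPM) and at 295 CPM for the sum of the hairpins from Mir379 on (next 209 CPM). 27HC replicate 4 stood apart at 41.1 CPM for miR-494-3p (13 counts; next 16.4 CPM) and at 9.48 CPM for miR-485-3p (3 counts; next 0). 27HC replicate 5 stood apart at 56.1 CPM for miR-370-3p (7 counts; next 19.96 CPM). Among DMSO libraries, replicate 5 stood apart at 16.04 CPM for miR-665-5p (2 counts; next 3.36 CPM) and replicate 1 at 3.79 CPM for miR-382-3p (1 count; next 0).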

How the results depend on the processing

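The count of 0 members called held in all 28 alternatives, most of which tested no member. Over all names, 30 were called, against 42 in replicates 1 to 4 alone and 12 in replicates 5 to 7 alone. With limma-voom without a filter, chosen after seeing the data, 10 were called. The causes of these differences were not tested. The other alternatives gave 27 to 41 calls, and leaving out 1 library gave 21 (without 27HC replicate 3) to 34 (without DMSO replicate 7). The replicate block gave 37 calls and 0 members (without a filter, 1 member and 92 of 1695 names had an unadjusted p under 0.05), and 3 of 7 DMSO libraries correlated best with the 27HC library of their own number.

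The difference in the member sum kept its sign in 22 alternatives, at 11.8 to 44.3 CPM with 1 library left out and 21.1 to 47.4 CPM otherwise. The sum from Mir379 on ranged from 7.22 to 43.9 CPM, while the sums of 5p names (−11.2 to 25.1 CPM), of 3p names (−0.53 to 32.4 CPM) and upstream of Mir379 (−8.49 to 13.9 CPM) changed sign in 2, 1 and 7 alternatives. The difference in members detected was −4.43 without thinning and −0.92 to 1.07 with 1 library left out. Of 442 alternative fold changes of the 20 members, 69 changed sign and 12 moved by over 1 SE, and 6 members kept their sign throughout. The median log2 fold change was 0.01 over the 239 names that passed the filter and −0.19 over all 1695 names in the fit without one. These medians cover different sets of names. Upper quartile scaling was not run for single members. With at most 28 counts of a member in a library, fold changes of single members are not resolved.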
